A study of Mus musculus with 8 samples.

Results

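The genes described here encode synaptic adhesion proteins of 3 families: the neurexins Nrxn2 and Nrxn3, the neuroligins Nlgn1, Nlgn2 and Nlgn3, and the leucine-rich repeat transmembrane proteins Lrrtm1, Lrrtm2, Lrrtm3 and Lrrtm4. They were taken by gene symbol, 9 of the 23284 genes in the count files, and all 9 passed the filter on low counts. Poly(A) RNA of the cortex of C57BL/6 mouse embryos at E15.5 was sequenced in 4 WT and 4 ErbB4 -/- libraries. ErbB4 is a receptor tyrosine kinase for neuregulins, and the comparison asks which cortical transcripts differ when it is missing. Germline loss of ErbB4 is lethal through the heart, so the ErbB4 -/- mice carry an ErbB4 transgene driven there by the α-MHC promoter. The lines were bred as separate homozygous colonies, so colony and genotype cannot be told apart. The tissue sampled did not include the ganglionic eminences or the meninges. The labels do not say whether each library came from its own embryo or litter, so the p-values measure the spread between these libraries only.

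Neurexins sit on the presynaptic membrane and bind neuroligins and LRRTMs on the postsynaptic side, which brings the release machinery and the receptors opposite each other. Neuroligin 1 is known from excitatory synapses and neuroligin 2 from inhibitory ones, neuroligin 3 occurs at both, and the LRRTMs act at excitatory synapses. Both neurexins and neuroligins are alternatively spliced, and splicing affects which partners they bind. In the cortex at this age most neurons are still migrating or extending processes, and few synapses have formed.

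The cassette exons below are shown because they are alternatively spliced parts of the neuroligin genes, and a count per gene adds up reads with and without them. All are from NCBIM37 (mm9) with the GENCODE annotation of that build, read 5′ to 3′ on the strand of the gene, and capitals mark bases identical between the aligned exons of a pair. The site A exon of Nlgn1 at chr3:25819100-25819159 (minus strand) was compared with the second of the pair in Nlgn3 at chrX:98502414-98502473 (plus strand).
Nlgn1: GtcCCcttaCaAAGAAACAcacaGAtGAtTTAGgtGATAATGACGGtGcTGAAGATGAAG
Nlgn3: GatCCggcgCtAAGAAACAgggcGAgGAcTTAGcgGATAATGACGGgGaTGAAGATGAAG
They share 43 of 60 bases (71.7%). The first exon of the Nlgn3 pair, at chrX:98498411-98498470, shares only 16 bases with the Nlgn1 exon (26.7%), and the Nlgn2 exon, at chr11:69644065-69644115, is 51 bases long. Every one of these exons is a multiple of 3 bases long and is flanked by AG and GT in the introns. Whether an exon was included in these libraries was not analysed here.

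Over the whole series, libraries held 28205703 to 48871480 counts, of which the 9 genes together took 23932 to 49025. No pair of libraries within a genotype agreed within sampling noise. WT replicate 1 stood apart on the first principal component (-38.9, against -6.07 or above in the other 7), and its expression relative to the other libraries fell with transcript length (Spearman's rho across genes of -0.58, against 0.04 to 0.22). Xist was at 983 to 1686 CPM (counts per 1000000, after TMM normalization) in WT replicates 1 to 3 and at 2.70 to 3.82 CPM in WT replicate 4 and all 4 libraries labelled ErbB4 -/-, and the Y-linked Ddx3y had the opposite pattern, so sex is nearly confounded with genotype. Erbb4 itself was at 18.3 ± 6.81 CPM in WT and 22.4 ± 1.92 CPM (SD, n = 4 each) in the libraries labelled ErbB4 -/-, a log2 fold change of 0.28 (SE 0.23, edgeR adjusted p = 0.812) that was 0.06 without WT replicate 1, the lowest library at 8.99 CPM. Counts summed over a gene do not check a change in single exons, and since Erbb4 was not lower, the groups are named below by their labels. The authors genotyped their mice by PCR and found a difference in ErbB4 protein between ErbB4 -/- and wild-type newborn cortex by Western blot. Neither check was reported for these libraries.

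None of the 9 genes passed an adjusted p of 0.05 between the labelled genotypes in edgeR's quasi-likelihood test, where 0.0272% of the 14696 genes tested passed (4 genes, and 0.00680% as higher in the libraries labelled ErbB4 -/-). None passed in DESeq2, where 0.138% of the genes did, or in limma-voom, where 4 of the 14696 genes did. All 9 fitted values lay above 0, that is, towards higher levels in the libraries labelled ErbB4 -/-, at a median of 0.11 on the log2 scale against -0.002 over all genes tested. Of all genes, 49.2% lay above 0. At an unadjusted p under 0.05, Nlgn1 and Lrrtm2 lay above 0, 2 of 9, and none lay below, against 3.00% of all genes higher, 2.52% lower and 5.53% in either direction. The libraries of the labelled genotypes did not overlap for 1 gene, Nlgn1, against 1.86% of all genes in that direction and 3.34% in either. The 9 genes were measured in the same libraries and are not independent of each other.

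**Figure D1:**
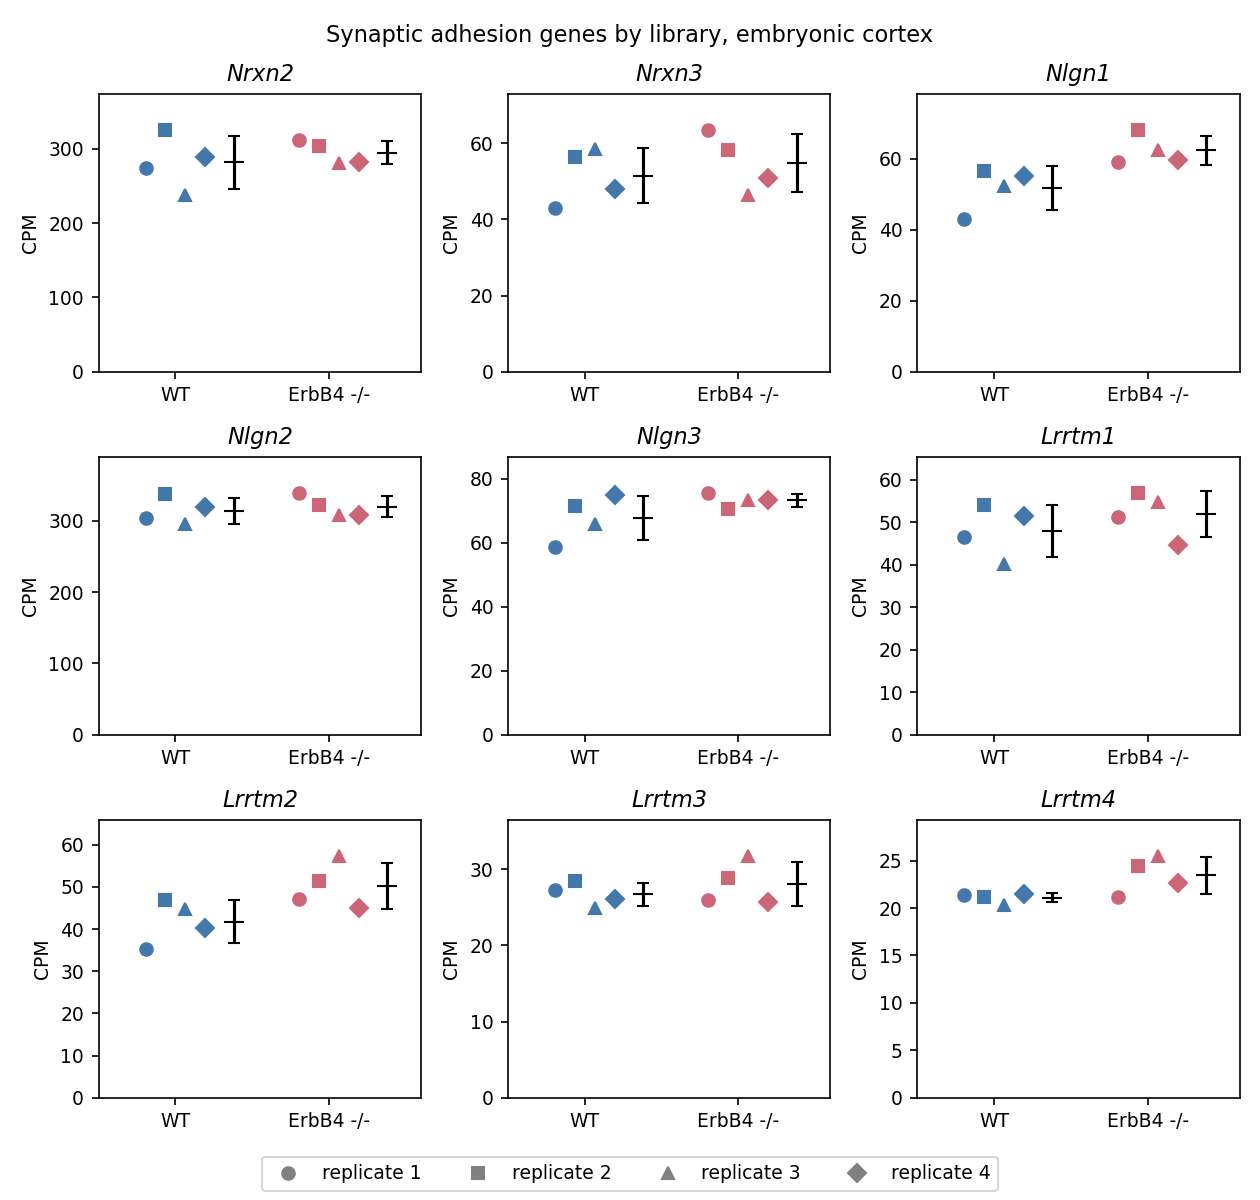
CPM of each of the 9 genes (vertical axes, each from 0) in the 4 WT libraries (blue) and the 4 libraries labelled ErbB4 -/- (red), with marker shapes for replicate numbers and bars for the mean ± SD. Only in the Nlgn1 panel do the groups not overlap, with WT at 42.9 to 56.5 CPM and the libraries labelled ErbB4 -/- at 59.2 to 68.2 CPM.

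Among the presynaptic genes, Nrxn2 lies at chr19:6418731-6544169 (plus strand) and Nrxn3 at chr12:89961320-91573375 (plus strand), a locus of 1612056 bases. Nrxn2 shares 669 exonic bases (4.84% of its own) with Slc22a12 on the opposite strand, whose reads there cannot be told apart. Slc22a12 itself had a mean of only 0.30 CPM in WT and 0.44 CPM in the libraries labelled ErbB4 -/-. Nrxn2 was at 274, 326, 238 and 288 CPM in WT replicates 1 to 4 and at 312, 303, 281 and 283 CPM in the libraries labelled ErbB4 -/-. WT replicates 2 and 3 were the highest and the lowest of all 8, so the range of the other group fell inside that of WT. The means were 282 ± 36.1 and 295 ± 15.1 CPM (SD, n = 4 each), a log2 fold change of 0.07 (SE 0.08, 95% interval -0.12 to 0.25, adjusted p = 0.861). Without WT replicate 3 the value was -0.01, so its sign rested on that library, with the length trend removed it was 0.002, and with Xist as a covariate it was 0.03.

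Nrxn3 was at 43.1, 56.4, 58.5 and 48.0 CPM in WT and at 63.5, 58.2, 46.5 and 50.8 CPM in the libraries labelled ErbB4 -/-. The groups overlapped over most of their range, with only 1 library labelled ErbB4 -/-, replicate 1, above every WT library. The log2 fold change was 0.09 (SE 0.11, 95% interval -0.16 to 0.34, adjusted p = 0.865). It ranged from 0.01 to 0.16 with single libraries left out, the lowest values being without replicate 1 of either group. It was 0.02 with the length trend removed and 0.21 with Xist as a covariate. Nrxn2 took 84.4% of the summed CPM of the 2 neurexins in both groups (SD 2.79 in WT and 1.18 in the other). This share is of reads and so also reflects transcript length.

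Of the postsynaptic partners, Nlgn1 had the smallest p of the 9 genes. It lies at chr3:25330733-26032656 (minus strand) and encodes the neuroligin of excitatory synapses. It was at 42.9, 56.5, 52.3 and 55.3 CPM in WT replicates 1 to 4 and at 59.2, 68.2, 62.5 and 59.7 CPM in the libraries labelled ErbB4 -/-. All 4 of the latter were above all 4 WT libraries, with WT replicate 1 the lowest and a gap of less than 3 CPM between the groups. The means were 51.8 ± 6.14 and 62.4 ± 4.12 CPM (SD, n = 4 each), a log2 fold change of 0.27 (SE 0.09, 95% interval 0.08 to 0.46) or 1.20-fold. The unadjusted p was 0.0103 in edgeR, the adjusted p was 0.810, and 157 genes had a smaller p. The exact two-sided permutation test gave p = 0.0286 before any adjustment, the smallest that 4 against 4 libraries allow.

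The fitted Nlgn1 value was lower when WT replicate 1 was left out and when Xist was a covariate. Without WT replicate 1 the log2 value was 0.19 (SE 0.06, adjusted p = 0.742), and with Xist as a covariate it was 0.20 (SE 0.15, unadjusted p = 0.205). WT replicate 4, which like the libraries labelled ErbB4 -/- had Ddx3y and little Xist, was at 55.3 CPM, below all 4 of them. As a share of neuroligin reads, Nlgn1 made up 11.9% ± 0.91 in WT and 13.7% ± 0.97 in the libraries labelled ErbB4 -/-, and on this measure the groups overlapped, from 10.6% to 12.6% and from 12.5% to 14.8%.

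Nlgn2, the neuroligin of inhibitory synapses, lies at chr11:69636624-69651286 (minus strand). It was at 304, 338, 296 and 320 CPM in WT and at 340, 323, 309 and 309 CPM in the libraries labelled ErbB4 -/-. The groups covered nearly the same range. Its log2 fold change of 0.03 had the narrowest interval of the 9 genes (SE 0.06, 95% interval -0.10 to 0.15, adjusted p = 0.929), and the sign turned when the length trend was removed (-0.02). With Xist as a covariate it was 0.001.

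Nlgn3, which occurs at both kinds of synapse, is X-linked (chrX:98491178-98521302, plus strand) and shares 749 exonic bases, 6.80% of its own, with Med12 on the same strand. Med12 was at 67.95 ± 12.9 CPM in WT, with replicate 1 at 48.7, and at 70.6 ± 6.86 CPM in the other group. The part of shared reads in the Nlgn3 counts was not tested. Nlgn3 was at 58.8, 71.4, 66.0 and 74.9 CPM in WT and at 75.6, 70.4, 73.4 and 73.5 CPM in the libraries labelled ErbB4 -/-. WT replicates 1 and 3 were the lowest, while WT replicates 2 and 4, the former with high Xist and the latter with little, were within the range of the other group. The log2 fold change was 0.11 (SE 0.07, 95% interval -0.05 to 0.28, adjusted p = 0.810), 0.05 without WT replicate 1, 0.03 with the length trend removed and -0.02 with Xist as a covariate.

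The LRRTM genes each code for a single-pass membrane protein, with 2 or 3 exons in the longest coding transcript, and 3 of them lie inside an α-catenin gene on its opposite strand. Lrrtm1 lies inside Ctnna2 (chr6:77192683-77207785, plus strand), Lrrtm2 inside Ctnna1 (chr18:35368665-35374678, minus strand) and Lrrtm3 inside Ctnna3 (chr10:63391220-63553025, minus strand). None of the 3 shares an exonic base with its host, which matters here because the libraries do not keep the strand. Reads from unspliced host RNA over these exons could not be told apart from their own, and their part was not tested. Lrrtm4 (chr6:79968871-80760137, plus strand) has no host gene, but 1543 of its exonic bases (25.1%) overlap the opposite-strand transcript Gm4409, whose reads cannot be told apart from its own.

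Lrrtm2, a neurexin ligand of excitatory synapses, had a fitted difference close to that of Nlgn1. It was at 35.3, 46.9, 44.6 and 40.2 CPM in WT and at 47.0, 51.3, 57.4 and 44.9 CPM in the libraries labelled ErbB4 -/-. Of the latter, 3 were above every WT library, although replicate 1 was level with WT replicate 2 to within the SD, and replicate 4 was below WT replicate 2. The means were 41.7 ± 5.13 and 50.2 ± 5.50 CPM (SD, n = 4 each), a log2 fold change of 0.26 (SE 0.10, 95% interval 0.05 to 0.48, unadjusted p = 0.0221, adjusted p = 0.810). The exact permutation test gave an unadjusted p of 0.0571. Without WT replicate 1 the log2 fold change was 0.19, and without replicate 3 of the libraries labelled ErbB4 -/- it was also 0.19 (unadjusted p = 0.0840 in edgeR). With Xist as a covariate it was 0.34 (SE 0.17, unadjusted p = 0.0690), and without WT replicate 4 it was 0.25 (unadjusted p = 0.0526).

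Lrrtm4, known from dentate granule cell synapses, was at 21.4, 21.2, 20.4 and 21.5 CPM in WT and at 21.2, 24.5, 25.5 and 22.6 CPM in the libraries labelled ErbB4 -/-. WT varied least for this gene (SD 0.50), and replicates 2, 3 and 4 of the other group were above it while replicate 1 was within it. The log2 fold change was 0.15 (SE 0.08, 95% interval -0.02 to 0.32, adjusted p = 0.810).

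Lrrtm1, which acts at excitatory synapses, was at 46.4, 54.0, 40.1 and 51.3 CPM in WT and at 51.2, 56.9, 54.7 and 44.6 CPM in the libraries labelled ErbB4 -/-. Lrrtm3, a neurexin ligand of the same family, was at 27.2, 28.5, 24.9 and 26.1 CPM in WT and at 25.9, 28.9, 31.8 and 25.8 CPM in the other group. For both genes the groups overlapped, and the log2 fold changes were 0.11 (95% interval -0.11 to 0.33, adjusted p = 0.827) and 0.07 (95% interval -0.11 to 0.26, adjusted p = 0.850). With single libraries left out, Lrrtm1, which was at 0.01 with Xist as a covariate, ranged from 0.04 (without WT replicate 3) to 0.18, and Lrrtm3 from 0.01 (without replicate 3 of the libraries labelled ErbB4 -/-) to 0.11. The summed CPM of the 4 LRRTM genes was 138 ± 9.65 in WT and 154 ± 14.4 in the libraries labelled ErbB4 -/- (SD, n = 4 each), with ranges of 130 to 151 and 138 to 169 that overlapped.

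**Figure D2:**
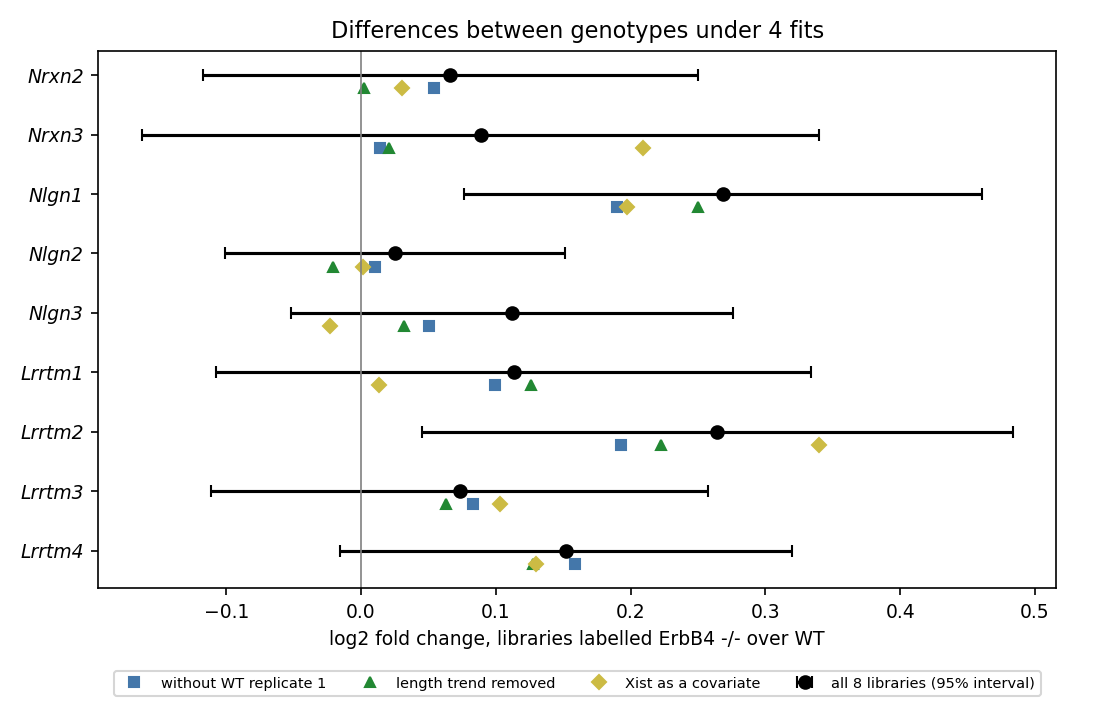
Log2 fold change of the libraries labelled ErbB4 -/- over WT (horizontal axis) for each gene, with its 95% interval from edgeR on all 8 libraries (black), and the value without WT replicate 1, with the length trend removed and with Xist as a covariate. The black intervals of Nlgn1 (0.08 to 0.46) and Lrrtm2 (0.05 to 0.48) lie above 0, and those of the other 7 genes include 0.

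The direction of the whole group was read beside transcript length and WT replicate 1. Of the 4881 tested genes with a transcript of 4000 bases or longer, which include 7 of the 9, 68.4% lay above 0, against 29.9% of those shorter than 2000 bases. Without WT replicate 1 those shares were 48.6% and 50.5%. All 9 synaptic adhesion genes were still above 0 without that library, with a median of 0.08, while 49.4% of all genes were. Nlgn1 and Lrrtm2 kept an unadjusted p under 0.05 there (2 of 9, against 3.22% of all genes as higher). With the length trend removed 8 of 9 were above 0, with a median of 0.06, against 50.1% of all genes, and Nlgn1 and Lrrtm2 again had an unadjusted p under 0.05 (against 3.98% of all genes as higher). With Xist as a covariate 8 of 9 lay above 0 with a median of 0.10, against 50.4% of all genes, and 0 of the 9 had such a p in edgeR (against 0.905% of all genes as higher), with the SE of Nlgn1 at 0.15 against 0.09 and that of Lrrtm2 at 0.17 against 0.10. Of the 9, 1 had it without WT replicate 4 (against 2.80% of all genes) or without replicate 3 of the libraries labelled ErbB4 -/- (against 1.91%), Nlgn1 in both. Without replicate 1 of the latter Lrrtm4 was added to the 2 (unadjusted p = 0.0336 in edgeR), against 2.07% of all genes. Leaving out other single libraries left 7 to 9 above 0, the lowest without WT replicate 3, and over all 8 left out in turn the median ranged from 0.07 (without replicate 2 of the libraries labelled ErbB4 -/-) to 0.15.

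Levels between genes were compared per kilobase of the longest coding transcript. Nlgn2 was the most abundant, at 57.0 ± 2.80 CPM per kilobase (SD over all 8 libraries), followed by Nrxn2 at 43.2 ± 3.99, Lrrtm1 at 19.6 ± 2.25 and Nlgn1 at 13.1 ± 1.71. The ranges of these 4 did not overlap their neighbours. Nlgn3 (8.25), Lrrtm2 (8.11), Lrrtm3 (7.03) and Nrxn3 (6.71) followed with overlapping ranges, and neighbours among them changed places between libraries, although Nlgn3 was above Nrxn3 in all 8. Lrrtm4 was lowest at 5.02 ± 0.41, below Nrxn3 in all 8 libraries although their ranges overlapped. By the mean per kilobase of all annotated exons the first 4 and the last kept their places, but Nrxn2 was at 20.9 against 54.8 for Nlgn2, because its annotated exons add up to 13816 bases against 6667 in its longest coding transcript. On this measure Lrrtm1 at 16.45 and Nlgn1 at 13.1 lay nearer to Nrxn2, and ranges over libraries were not compared.

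**Figure D3:**
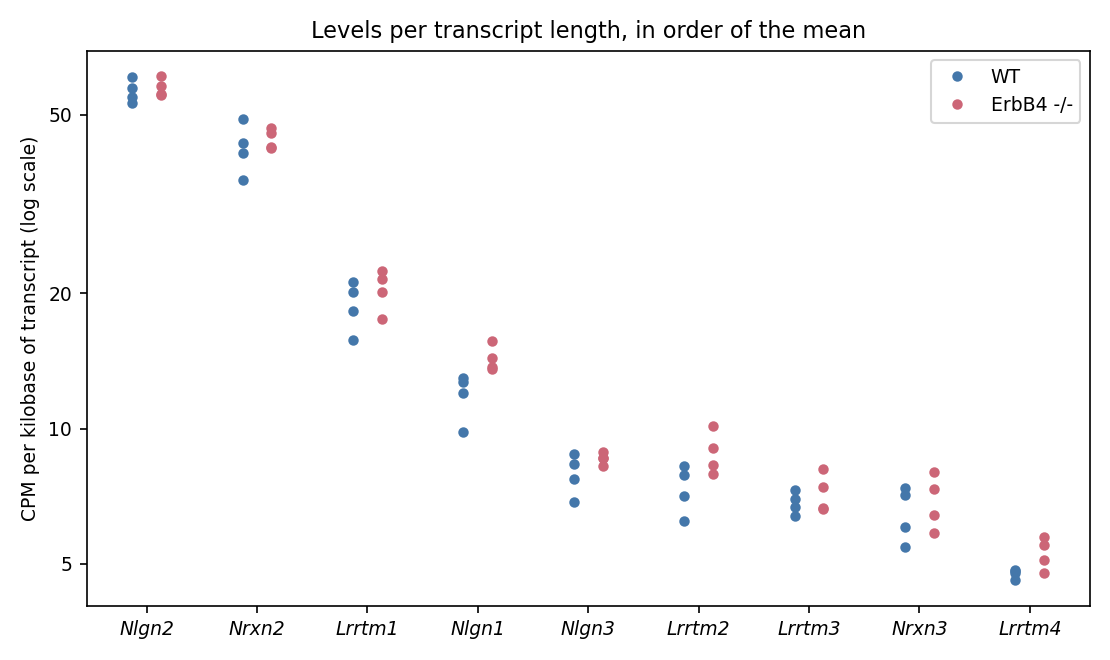
CPM per kilobase of the longest coding transcript (vertical axis, log scale) for each gene in each WT library (blue) and each library labelled ErbB4 -/- (red), ordered by the mean. Nlgn2 and Nrxn2 stand above the rest, and the ranges of Nlgn3, Lrrtm2, Lrrtm3 and Nrxn3 overlap.

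Across the libraries the 9 genes did not all have the same highest and lowest WT library. WT replicate 2 was the highest WT library for 6 of them, WT replicate 3 the lowest for 5 and WT replicate 1 the lowest for the other 4. Of the 36 pairs of genes, 33 had a positive Pearson's r of log2 CPM over the 8 libraries, with a median of 0.46, and 27 without WT replicate 1, with a median of 0.39. Nrxn2 and Nlgn2 varied most closely together (r = 0.93 with and without that library). Nlgn1 and Lrrtm2 had an r of 0.85, which was 0.68 without it. These are descriptions over libraries that share depth and composition. By the same measure over all genes tested, Nrxn2 was most like Znrf1 (r = 0.98), Lrfn1 and Dnm1 (both 0.97), Nlgn2 was most like Dnm1 (0.99), Clip2 and Clstn3 (both 0.98), and Lrrtm1 was most like Chst2, Npas1 and Gimap8 (all 0.96), of which Gimap8 had a mean of only 0.69 CPM. Picking the highest r among 14696 genes over 8 libraries by itself favours values this high.

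The other genes of the neurexin pathway were read from 6 lists with 79 genes, all of them tested. None passed an adjusted p of 0.05 in edgeR, DESeq2 or limma-voom, 61 lay above 0 and 18 below, and 6 had an unadjusted p under 0.05 in edgeR, all above 0, with a median log2 fold change of 0.08. Over all genes tested 49.2% lay above 0 (68.4% of those with a transcript of 4000 bases or longer), and 3.00% had such a p above 0 and 5.53% in either direction. Without WT replicate 1, 51 lay above 0 and the median was 0.03, and with the length trend removed 63 did, with a median of 0.05. Among 24 other genes listed as neurexin ligands, 17 lay above 0 with and without WT replicate 1, with medians of 0.09 and 0.04. The smallest p belonged to Clstn2, which encodes a calsyntenin, at 45.8, 64.9, 55.8 and 60.01 CPM in WT and 74.1, 91.7, 79.3 and 62.5 CPM in the libraries labelled ErbB4 -/-. Replicate 4 of the latter was below WT replicate 2, and the log2 fold change was 0.44 (SE 0.12, unadjusted p = 0.00391, adjusted p = 0.810). The secreted ligands Fam19a1 and Cbln2 had values of 0.22 (unadjusted p = 0.0357) and -0.28 (unadjusted p = 0.0684).

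The MDGA proteins bind neuroligins and block the neurexin site. Mdga1 was at 167 ± 21.7 and 166 ± 11.7 CPM (log2 fold change -0.01, unadjusted p = 0.905), and Mdga2 was at 35.3 ± 4.24 and 43.9 ± 5.63 CPM (SD, n = 4 each; log2 fold change 0.32, SE 0.11, unadjusted p = 0.0118, adjusted p = 0.810 in edgeR). Without WT replicate 1 the log2 fold changes of Mdga1 and Mdga2 were -0.08 and 0.25. Of 29 genes of other synaptic adhesion pairs, 25 lay above 0, with a median of 0.09, while 17 did without WT replicate 1, with a median of 0.03, and 24 with the length trend removed, with a median of 0.07. The 3 with the smallest p were Cadm2, a homophilic and heterophilic adhesion protein (0.26, unadjusted p = 0.0196), Il1rap, a partner of receptor tyrosine phosphatases (0.23, unadjusted p = 0.0425), and Lrrc4, a netrin-G ligand (0.17, unadjusted p = 0.0598). For Il1rap the groups did not overlap, 1 of the 79 pathway genes, against 1.86% of all genes in that direction and 3.34% in either. Of 18 genes of scaffolds that bind the intracellular ends, 15 lay above 0, with a median of 0.07, and 12 without WT replicate 1, with a median of 0.02. With the length trend removed 15 did, with a median of 0.04. The smallest p values belonged to Dlg2, which encodes PSD-93 (0.25, unadjusted p = 0.0214), Magi2 (0.13, unadjusted p = 0.143) and Dlg3 (0.07, unadjusted p = 0.172), of which Dlg2 was at 0.16 and Magi2 at 0.06 without WT replicate 1.

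**Figure D4:**
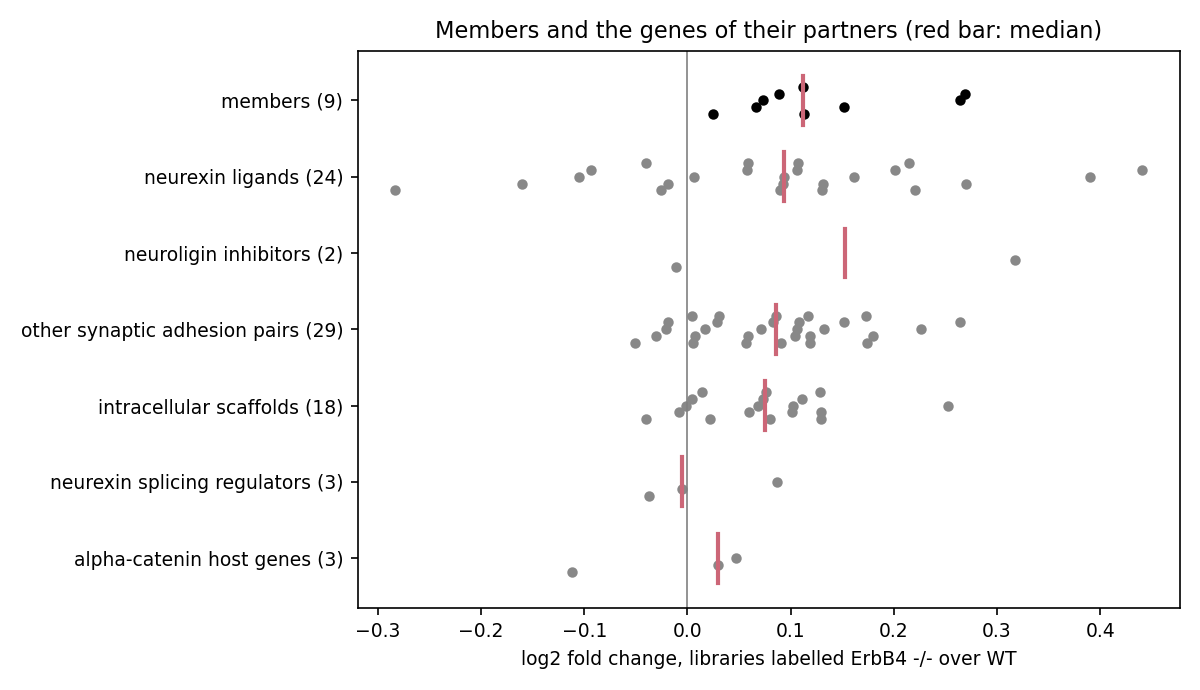
Log2 fold change of the libraries labelled ErbB4 -/- over WT (horizontal axis) of the 9 genes (black) and of the genes in the 6 lists (grey), 1 point per gene with the number of genes in parentheses, and the median as a red bar. The 9 genes have a median of 0.11, and the ligands, other adhesion pairs and scaffolds have medians of 0.09, 0.09 and 0.07.

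Khdrbs1, Khdrbs2 and Khdrbs3 encode Sam68, SLM1 and SLM2, RNA-binding proteins that act on neurexin splicing. They were at 471 ± 7.26, 25.7 ± 0.87 and 210 ± 23.5 CPM in WT and at 458 ± 6.69, 27.3 ± 1.78 and 209 ± 5.96 CPM in the libraries labelled ErbB4 -/- (SD, n = 4 each). None had an unadjusted p under 0.05, with log2 fold changes of -0.04, 0.09 and -0.01, the last at 0.08 without WT replicate 1. The host genes had log2 fold changes of -0.11 for Ctnna1, 0.03 for Ctnna2 and 0.05 for Ctnna3, the last at only 0.32 CPM in both groups and with a log2 value of 0.26 without WT replicate 1, none with an unadjusted p under 0.05. Lrrtm2 and its host Ctnna1 thus had fitted values on opposite sides of 0.

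The labelled tissue was checked with cell type markers. All 8 excitatory neuron markers were detected, summing to 4754 to 5543 CPM in WT and 4908 to 5209 CPM in the libraries labelled ErbB4 -/-, and the summed levels overlapped between the groups in all 11 lists. Of 8 radial glia markers, 7 lay below 0, 4 of them with an unadjusted p under 0.05, with a median log2 fold change of -0.21 and sums of 1854 to 2404 CPM in WT and 1848 to 2019 CPM in the other group. All 4 intermediate progenitor markers lay below 0, 2 of them with an unadjusted p under 0.05, with a median of -0.25 and sums of 503 to 621 and 437 to 567 CPM. Excitatory neuron markers had a median of -0.02 (3 of 8 above 0, 1 with an unadjusted p under 0.05), interneuron markers a median of -0.004 (4 of 8 above 0) with sums of 505 to 679 and 501 to 684 CPM, and no list but that of red blood cells held a gene at 0 in every library. Oligodendrocyte lineage markers had a median of 0.21 (4 of 4 above 0, 2 with an unadjusted p under 0.05), astrocyte markers of 0.27 (3 of 4 above 0, 1 with such a p) and red blood cell markers of -0.69 (1 of 4 tested above 0, 2 of those below 0 with such a p), the last with sums of 31.8 to 56.6 CPM in WT and 20.8 to 35.2 CPM in the other group. No marker of these lists passed the adjusted p. Over all genes tested 2.52% had an unadjusted p under 0.05 with a value below 0, 3.00% with one above 0, and 5.53% in either direction. Without WT replicate 1 the median was 0.02 for excitatory neuron markers (5 of 8 above 0) and -0.04 for interneuron markers (2 of 8). For radial glia and intermediate progenitor markers it was -0.14 (2 of 8) and -0.19 (0 of 4). The part of these differences in the values of the synaptic adhesion genes was not tested, and in such bulk samples fewer cells of a type and less RNA per cell cannot be told apart.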

How the data were processed

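RNA was measured in 4 WT and 4 ErbB4 -/- libraries, grouped by their labels. The authors made non-stranded poly(A) libraries and used HISAT to map single-end reads to mm9 and HTSeq to count them. The annotation and counting mode are not given in the sources used here. The deposited files hold raw counts per gene symbol. A deposited DESeq2 table of the authors' own comparison (fold changes and p-values) was not used. The test was the quasi-likelihood F test of edgeR 4.0.16 under R 4.3.3 (glmQLFit and glmQLFTest on TMM-scaled libraries; filterByExpr with min.count 10 and min.total.count 15). P-values of the 14696 genes left were adjusted by Benjamini-Hochberg and called at 0.05. Exact two-sided permutation tests used all 70 assignments of the 8 libraries. CPM were computed after TMM, and log2 CPM with a prior count of 2. Depth of 28205703 to 48871480 counts gave each of the 9 genes at least 601 counts per library. Alternatives were DESeq2 1.42.0, limma-voom (limma 3.58.1), other normalizations and filters, a block for the replicate number, a covariate for Xist, removal of the trend with transcript length, a threshold of 0.1, a prior count of 0.5 and leaving out each library. Positions and exon sequences came from GENCODE on NCBIM37, matched by symbol. All 9 genes are named. From each pathway list up to 3 genes with the smallest unadjusted p are named, with all inhibitors, splicing regulators and host genes, and the 3 genes most like the member of each family with the most CPM. Genes and lists were chosen with earlier results of these data known. Python 3.11.15 with matplotlib 3.10.9 drew the figures. A neurexin exon sequence is not reported here.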

Additional observations from a re-analysis of the deposited data

How the results depend on the processing

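Of 162 values of the 9 genes under alternatives, 157 kept their direction and 5 turned. The 9 with a prior count of 0.5 have no test, and none of the others crossed the threshold. The turned values were Nlgn2 with the length trend removed (-0.021) and in 2 fits that left out 1 library (range -0.0047 to 0.061), Nlgn3 with Xist as a covariate (-0.023), and Nrxn2 without WT replicate 3 (range over single libraries left out -0.0058 to 0.14). The causes were not tested. Nlgn1 ranged from 0.19 to 0.31 with single libraries left out, with adjusted p from 0.494 to 1.00 over all alternatives, and had an unadjusted p under 0.05 in 17 of 18 fits, the exception being that with Xist as a covariate. Lrrtm2 ranged from 0.19 to 0.32 and had an unadjusted p under 0.05 in 15 of 18 fits.

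Over all genes, 4 passed in edgeR, 23 in DESeq2, 1 with relative log expression, 1 with upper-quartile normalization, 1 with the replicate block, 1 with Xist as a covariate and 2 with the length trend removed. Leaving out single libraries gave 1 to 13, the most without WT replicate 4. Same-numbered libraries had correlations of deviations of 0.0837, 0.135, 0.0476 and 0.0236. WT replicates 1 and 2 correlated best with their own number, and WT replicates 3 and 4 did not. The labels do not tie the numbers to a litter or batch. Under the replicate block Nlgn1 had an adjusted p of 0.598. With at least 601 counts per library, the counting error of each of the 9 genes was smaller than the common biological coefficient of variation over all genes, 10.7%. Whether depth or the number of libraries limited the precision more was not tested.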
